A study of Mus musculus with 20 samples.

Results

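Expression was followed for 9 genes of piRNA and transposon defence: Asz1, Gpat2, Piwil2, Ddx4, Mael, Tdrd12, Stk31, Tex19.1 and Morc1. They were taken by name, as all probe sets whose symbol in the platform annotation is one of these, and they are 9 of the 18193 genes measured. The list of names was drawn up with earlier results of these data known. The array reads them with 11 probe sets, 2 each for Asz1 and Stk31 and 1 for each of the others. Where there were 2, the one with the higher mean over the 20 arrays was used. For Asz1, Gpat2, Tex19.1, Ddx4, Mael and Piwil2 this was a probe set designed for a single transcript, whereas those of Stk31, Tdrd12 and Morc1 can read several transcripts. Mean levels of genes are on the log2 scale and are not compared between genes, since probe sets differ in brightness.

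In germ cells, PIWI proteins carry small guide RNAs, the piRNAs, to transcripts of transposons, which are then cut or silenced at their source. The guides are trimmed on the surface of mitochondria and amplified in the nuage, a cytoplasmic granule of germ cells held together by helicases and Tudor-domain proteins. The pathway is at work mainly in the male germ line, and promoters of several of its genes are known to carry DNA methylation in somatic tissues. Dnmt3a and Dnmt3b are the enzymes that set new methylation on DNA.

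The cells were mouse ES cell lines of the J1 line (129sv/Jae background), either wild type (WT) or lacking Dnmt3a and Dnmt3b (Dnmt3a-/-Dnmt3b-/-, DKO). Each genotype was measured in 5 states with 2 arrays per state, labelled as biological replicates (n = 2 throughout). All cells but those of replicate 1 of the Flk1+ groups carried Gata4GR, in which Gata4 is joined to the hormone-binding part of the human glucocorticoid receptor. The transgene is driven by the CAG promoter and its product is activated by dexamethasone (Dex). No cells without Gata4GR were given Dex in this series, so activation of Gata4 and Dex itself cannot be told apart. The states were undifferentiated ES cells kept with LIF, primitive endoderm (PE) made from ES cells by 4 days of 100 nM Dex, and Flk1+ mesoderm, sorted for Flk1 and PDGFRα after 4 days on type IV collagen. More DKO than WT cells were plated on collagen. The paper reports a low recovery of Flk1+ cells from DKO cells there and calls this condition not stable. In the remaining states the sorted mesoderm was kept for a further 4 days in medium with no Dex (Dex- cells) or 100 nM Dex (Dex+ cells). There was 1 transgenic clone per genotype, J1G4.2 for WT and 16G4.3 for DKO, and replicate 1 of the Flk1+ groups came from the parental lines J1 and 16aabb. The genotype and the line therefore cannot be told apart. These are bulk samples, so that fewer cells with a transcript and less of it per cell cannot be told apart either.

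Promoter sequences are shown for the genes that differed between DKO and WT cells in at least 3 of the 5 states and have an entry in the RefSeq promoter table used here (build GRCm38.p6). They are the 250 bases before an annotated start, 5′ to 3′ on the strand of the gene, with each CG dinucleotide, the site of DNA methylation, in capitals. Asz1 lies on the minus strand (chr6:18109062-18109311) and Gpat2 on the plus strand (chr2:127424949-127425198). Tex19.1 is on the plus strand (chr11:121145893-121146142) and Ddx4 on the minus strand (chr13:112652311-112652560). Stk31 is on the plus strand, where the first of its 2 overlapping windows is shown (chr6:49395289-49395538). Morc1 and Piwil2 met the same criterion and are named only.

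Asz1: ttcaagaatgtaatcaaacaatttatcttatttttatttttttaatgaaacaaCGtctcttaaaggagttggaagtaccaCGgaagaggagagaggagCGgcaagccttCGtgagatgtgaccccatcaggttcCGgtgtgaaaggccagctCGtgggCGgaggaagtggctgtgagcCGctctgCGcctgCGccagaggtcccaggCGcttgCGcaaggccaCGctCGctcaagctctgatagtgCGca

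Gpat2: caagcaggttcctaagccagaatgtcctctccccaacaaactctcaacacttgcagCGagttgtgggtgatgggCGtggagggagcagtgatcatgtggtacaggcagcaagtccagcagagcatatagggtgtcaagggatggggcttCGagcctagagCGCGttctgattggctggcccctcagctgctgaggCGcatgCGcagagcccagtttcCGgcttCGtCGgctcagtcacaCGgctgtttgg

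Tex19.1: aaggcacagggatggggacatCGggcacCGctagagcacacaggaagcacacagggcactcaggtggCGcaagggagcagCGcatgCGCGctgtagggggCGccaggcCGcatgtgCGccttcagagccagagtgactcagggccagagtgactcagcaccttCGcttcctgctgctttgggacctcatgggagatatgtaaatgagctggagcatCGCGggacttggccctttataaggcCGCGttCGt

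Ddx4: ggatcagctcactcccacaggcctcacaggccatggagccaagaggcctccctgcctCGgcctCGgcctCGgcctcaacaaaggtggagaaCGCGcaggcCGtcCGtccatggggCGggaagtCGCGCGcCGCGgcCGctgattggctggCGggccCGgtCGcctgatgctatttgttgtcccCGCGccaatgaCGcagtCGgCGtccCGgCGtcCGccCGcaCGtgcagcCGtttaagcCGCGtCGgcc

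Stk31: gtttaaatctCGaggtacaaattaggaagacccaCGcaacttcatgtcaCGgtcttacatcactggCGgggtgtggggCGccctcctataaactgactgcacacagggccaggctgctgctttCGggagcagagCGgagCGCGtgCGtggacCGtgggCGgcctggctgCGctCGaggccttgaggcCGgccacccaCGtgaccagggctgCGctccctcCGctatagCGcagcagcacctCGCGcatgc

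The Asz1 and Tex19.1 windows hold 15 CG each, the Gpat2 window 11, the Ddx4 window 31 and the Stk31 window 21, against a median of 6 over all 32851 windows of this length. At least as many CG are found in 27.3%, 35.6%, 5.19% and 16.3% of all windows for counts of 15, 11, 31 and 21. Of the genes not shown, the Mael window holds 18 (21.7% of windows hold as many) and the 2 overlapping Tdrd12 windows hold 6 and 5 (50.4% and 55.6%). The letters CACGTG, the E-box that the Max and Mga proteins bind, begin at position -29 in Ddx4, -55 in Stk31 and -223 in Mael, where -1 is the last base before the start, and occur in 6.02% of all windows. The letters GCGGGAA, read by E2f6, begin at position -136 in Ddx4, and occur on either strand in 3.82% of all windows. The second Stk31 window shares its CACGTG with the first. Both motifs contain a CG, and CACGTG reads the same on both strands. A match describes the letters only.

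The 2 arrays of a group correlated at 0.979 to 0.996 over all genes, lowest in the Flk1+ groups, where 880 (WT) and 698 (DKO) genes were at least 2-fold apart between replicates. The deleted genes checked the labels, and both DKO arrays lay below both WT arrays in all 5 states for each of them, by amounts that differed between states. Dnmt3b stood at 12.63 to 13.06 in WT and at 8.88 to 8.97 in DKO ES cells, but at 6.82 and 7.1 against 6.2 and 6.11 in Dex+ cells. For Dnmt3a the ES values were 9.34 to 9.44 (WT) and 6.22 to 6.33 (DKO), and the Dex+ values 7.47 and 7.46 (WT) and 6.51 and 6.83 (DKO). PE and Flk1+ cells bore their markers. Of 11 genes of primitive endoderm, 11 rose from ES cells to PE in each genotype. The 9 measured genes of Flk1+ mesoderm had a mean level of 10.41 to 10.85 over the Flk1+ arrays and of 5.68 to 5.96 over the ES arrays. Of 8 mural cell markers 4 rose and 1 fell from Flk1+ to Dex- cells in WT. A difference passed where limma, fitted to all genes and all 20 arrays, gave an adjusted p under 0.05 and a change of at least 2-fold (1 on the log2 scale). "Higher", "lower", "rose" and "fell" are used of such differences. For each gene the SE and p rest on 1 spread shared by the 10 groups. They therefore do not measure the spread within a single state, such as the wider one of the Flk1+ groups. Between WT and DKO arrays of the same state and replicate the scan day was shared. All ES arrays were scanned on day 1 and no other array was, so that the steps from ES cells to PE and to Flk1+ mesoderm cannot be told apart from the scan day.

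In every state some of the 9 genes were higher in DKO than in WT cells, and in Dex- cells all of them were. In ES cells 5 of the 9 genes were higher in DKO (1.12% of all genes tested were), in PE 4 were higher (1.13%) and 1 was lower (0.824%), and in Flk1+ mesoderm 6 were higher (0.396%). In Dex- cells 9 were higher (3.51% of all genes) and in Dex+ cells 7 were (4.82%). Since the list was drawn up with earlier results of these data known, these counts and shares are a description and no test of the set. The median difference over the 9 genes was 1.12 in ES cells, 0.61 in PE, 1.99 in Flk1+ cells, 4.51 in Dex- cells and 2.30 in Dex+ cells, while the median over all genes lay within 0.03 of 0 in each of the 18 comparisons made here. Within each pair of arrays of 1 replicate number, which share a scan day, the median gap of the 9 genes was 4.62 and 4.41 in Dex- cells (days 4 and 3) and 1.56 and 2.01 in Flk1+ cells (days 4 and 2). It was 0.68 and 0.54 in PE (days 2 and 3), 1.24 and 0.84 in ES cells, and 2.62 and 2.13 in Dex+ cells. Asz1, Gpat2 and Tex19.1 were higher in DKO cells of all 5 states.

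Markers of other cell types also differed between the genotypes in the cultured states. In Dex- cells 4 of 8 mural cell markers were higher in DKO and 0 lower (mean level 9.09 and 9.24 for WT, 9.72 and 10.19 for DKO), and of 11 primitive endoderm markers 1 was higher, Pdgfra (2.25). Of 9 mesoderm markers 2 were higher, Eomes (3.92) and Pdgfra, which is on both lists, and 2 lower, Aplnr (-4.73) and Foxf1 (-2.76). In Dex+ cells 7 of 11 primitive endoderm markers were higher in DKO (10.57 and 10.75 for WT, 12.61 and 12.7 for DKO) and 4 of 8 mural cell markers lower (9.2 and 9.4 for WT, 7.83 and 7.62 for DKO). Of the mesoderm markers 1 was higher and 4 lower there. In Flk1+ cells 2 primitive endoderm markers were lower and 0 of 8 mural and 0 of 9 mesoderm markers passed in limma (1 and 3 at an unadjusted p under 0.05), and in ES cells 1 mural marker was higher. These markers are named after their values were seen, and their part in the values of the 9 genes was not tested.

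**Figure D1:**
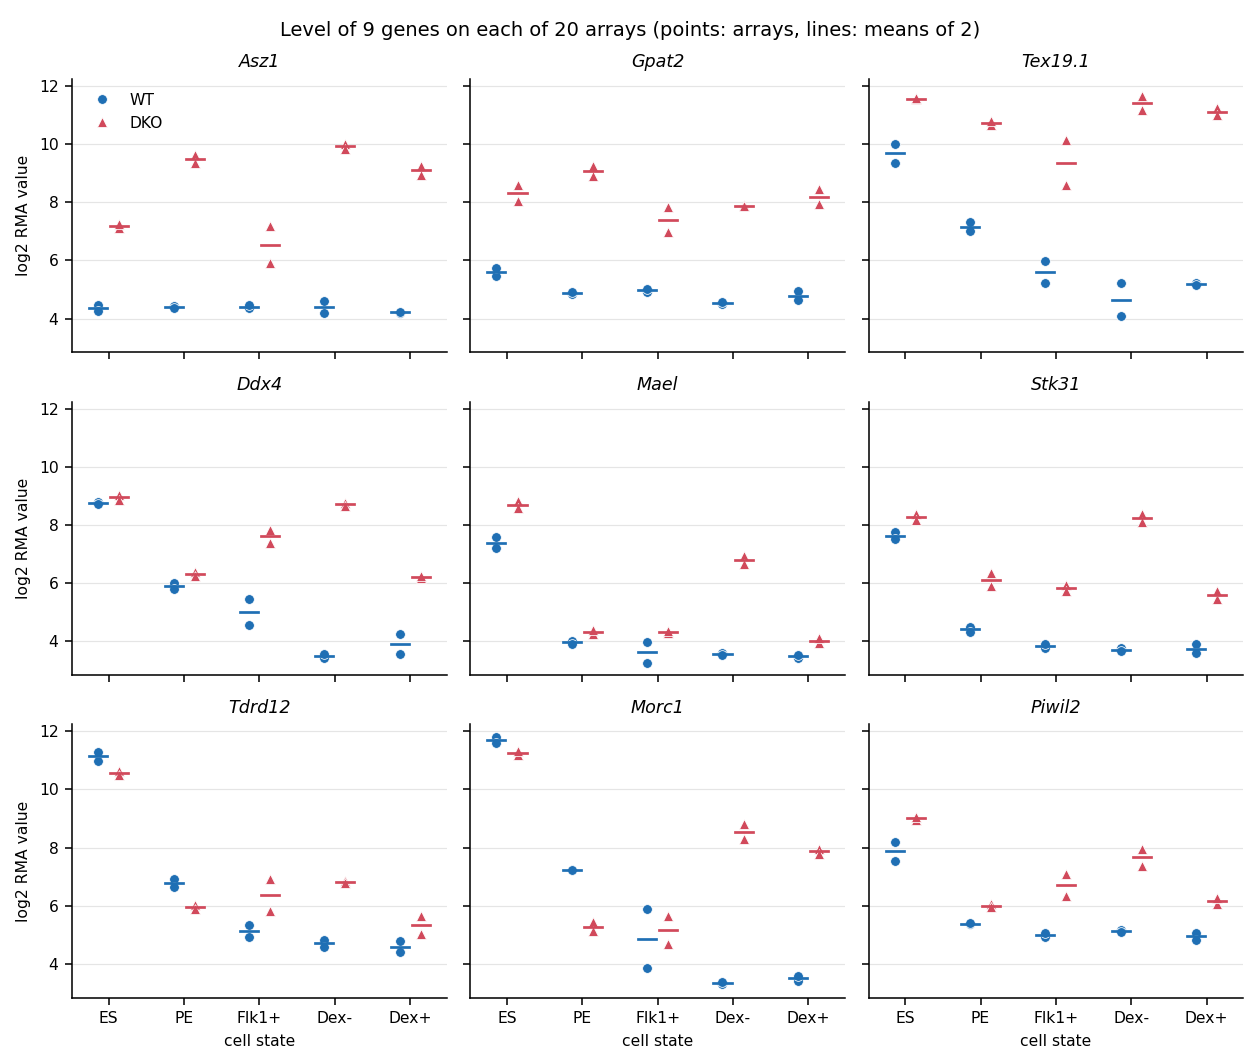
Log2 RMA value (vertical axis) of the 9 genes on each of 20 arrays, by cell state (horizontal axis). Circles are WT and triangles DKO arrays, and lines are means of 2. In Dex- cells both DKO arrays of each gene lie above both WT arrays, and Asz1 stays at 4.19 to 4.59 in every WT group.

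Asz1 encodes an ankyrin-repeat protein of the outer mitochondrial membrane that anchors the nuage. In WT cells it stood at 4.48 and 4.25 in ES cells, 4.42 and 4.37 in PE, 4.36 and 4.46 in Flk1+ cells, 4.59 and 4.19 in Dex- cells, and 4.2 and 4.24 in Dex+ cells. In DKO cells the corresponding values were 7.11 and 7.25, 9.62 and 9.36, 5.92 and 7.17, 10.01 and 9.82, and 9.23 and 8.95. No WT array reached the lowest DKO array, the one of the parental DKO line in Flk1+ mesoderm. The WT group means lay between 4.22 and 4.41, whereas the DKO groups ran from Dex- cells (9.92 ± 0.13, SD, n = 2) through PE (9.49 ± 0.18), Dex+ cells (9.09 ± 0.2) and ES cells (7.18 ± 0.10) to Flk1+ cells (6.54 ± 0.88), of which ES and Flk1+ cells overlapped. The difference between DKO and WT was 2.82 ± 0.28 (SE) in ES cells (adjusted p = 3.76e-05), 5.09 ± 0.28 in PE (adjusted p = 1.23e-07) and 2.13 ± 0.28 in Flk1+ cells (adjusted p = 0.00129). It was 5.53 ± 0.28 in Dex- cells, about 46.1-fold (adjusted p = 1.05e-08), a size that is not exact because no detection limit was applied to the dim WT values, and 4.87 ± 0.28 in Dex+ cells (adjusted p = 2.21e-08). The second probe set of Asz1, which can read several transcripts, moved less. It ran from 5.17 to 5.77 over the WT arrays and from 5.52 to 7.07 over the DKO arrays, and its differences were 0.47, 1.00, 0.27, 1.43 and 0.59 in the same order of states, of which those of PE (adjusted p = 0.00943) and Dex- cells (adjusted p = 0.000217) passed.

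Gpat2 encodes a glycerol-phosphate acyltransferase relative of the mitochondrial outer membrane that takes part in making primary piRNAs. It showed the same order of genotypes. Its WT values were 5.48 and 5.75 in ES cells, 4.86 and 4.92 in PE, 4.93 and 5.03 in Flk1+ cells, 4.51 and 4.56 in Dex- cells, and 4.94 and 4.63 in Dex+ cells. The DKO values were 8.04 and 8.58, 8.91 and 9.25, 6.96 and 7.84, 7.91 and 7.86, and 7.93 and 8.46. All 10 DKO arrays lay above all 10 WT arrays, and the highest WT group was that of ES cells (5.62 ± 0.19). Among the DKO groups PE led (9.08 ± 0.24), ES and Dex+ cells overlapped, and Flk1+ cells were last (7.40 ± 0.63). The differences were 2.69 in ES cells, 4.19 in PE, 2.42 in Flk1+ cells, 3.34 in Dex- cells and 3.41 in Dex+ cells, each with an SE of 0.26 (adjusted p from 2.65e-07 to 0.000177).

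Piwil2 is the PIWI protein itself (Mili), which binds piRNAs and cuts transposon transcripts. ES cells were read at 7.54 and 8.21 (WT) and at 8.96 and 9.05 (DKO). In PE the values were 5.37 and 5.41 against 6.05 and 5.95, and in Flk1+ cells 4.92 and 5.08 against 6.35 and 7.09. Dex- cells had 5.16 and 5.11 against 7.38 and 7.97, and Dex+ cells 5.07 and 4.83 against 6.08 and 6.28. ES cells were thus the highest group within each genotype, and the DKO arrays lay above the WT arrays of the same state in all 5 states. The difference passed in Flk1+ cells (1.72 ± 0.25, adjusted p = 0.00284), Dex- cells (2.54 ± 0.25, adjusted p = 7.6e-06) and Dex+ cells (1.23 ± 0.25, adjusted p = 0.00227), and in ES cells (1.12 ± 0.25, adjusted p = 0.0261). In ES cells it no longer passed when WT replicate 1 (0.79), DKO replicate 1 (1.17) or DKO replicate 2 (1.08) was left out. In PE it was 0.61 (95% interval 0.09 to 1.14, adjusted p = 0.263).

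Ddx4 encodes the RNA helicase Vasa, a defining component of germ cell granules. In ES cells it was bright in both genotypes, at 8.79 and 8.72 (WT) and 9.03 and 8.87 (DKO), with a difference of 0.19 (95% interval -0.36 to 0.74, adjusted p = 0.902). PE arrays stood at 5.99 and 5.79 for WT against 6.39 and 6.25 for DKO, a difference of 0.43 (95% interval -0.12 to 0.98, adjusted p = 0.571). The genotypes parted in mesoderm. Flk1+ cells had 5.46 and 4.57 against 7.37 and 7.84 (2.59 ± 0.26, adjusted p = 0.000112). Dex- cells had 3.42 and 3.55 in WT, the lowest of the 10 groups, and 8.76 and 8.66 in DKO, which overlapped WT ES cells. That difference of 5.22 ± 0.26 (adjusted p = 8.53e-09) was the largest of Ddx4. Dex+ cells had 3.57 and 4.27 against 6.19 and 6.26 (2.30 ± 0.26, adjusted p = 1.33e-05).

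Mael encodes Maelstrom, a nuage protein needed for transposon silencing in the testis. ES cells were read at 7.58 and 7.21 (WT) and at 8.82 and 8.57 (DKO), and this difference passed (1.3 ± 0.2, adjusted p = 0.0021). PE had 4.03 and 3.91 against 4.24 and 4.40 (0.35, 95% interval -0.07 to 0.77). Flk1+ cells had 3.99 and 3.27 against 4.29 and 4.34 (0.69, 95% interval 0.26 to 1.11, adjusted p = 0.121). Outside ES cells the DKO arrays were highest in Dex- cells, at 6.92 and 6.67 against 3.59 and 3.53 (3.23 ± 0.2, adjusted p = 8.95e-08). With Dex they stood at 3.93 and 4.1 against 3.44 and 3.53 (0.53, 95% interval 0.11 to 0.96, adjusted p = 0.0796). The Dex+ DKO group overlapped WT PE in the order of levels.

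Stk31 encodes a testis protein with a Tudor domain and a kinase-like domain. ES cells were read at 7.75 and 7.51 (WT) and at 8.37 and 8.17 (DKO), a difference that did not pass (0.64, 95% interval 0.26 to 1.02, adjusted p = 0.0847). Values in PE were 4.50 and 4.33 against 6.34 and 5.9 (1.70 ± 0.18, adjusted p = 3.6e-05). Flk1+ cells had 3.79 and 3.9 against 5.95 and 5.72 (1.99 ± 0.18, adjusted p = 4.4e-05). The DKO Dex- arrays, at 8.38 and 8.09, overlapped DKO ES cells and lay above both WT ES arrays. WT Dex- cells were at 3.76 and 3.68, and the difference was 4.51 ± 0.18 (adjusted p = 1.6e-09). In Dex+ cells it was 1.85 ± 0.18 (3.9 and 3.61 against 5.46 and 5.73, adjusted p = 3.13e-06). The second probe set of Stk31 gave differences of 0.74, 1.81, 2.24, 4.76 and 1.89 from ES to Dex+ cells, past the threshold in the same 4 states.

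Tdrd12 encodes a Tudor-domain helicase of the piRNA amplification step. ES cells had 10.99 and 11.28 for WT against 10.65 and 10.49 for DKO (-0.56, 95% interval -1.18 to 0.05, adjusted p = 0.5). PE had 6.92 and 6.65 against 6.02 and 5.88 (-0.83, 95% interval -1.45 to -0.22, adjusted p = 0.162). In Flk1+ cells the values were 5.33 and 4.92 against 5.82 and 6.91 (1.24 ± 0.29, adjusted p = 0.0545), which did not pass. It did so with quantile normalization (1.28, adjusted p = 0.0485) and with trended robust variances (1.24, adjusted p = 0.0472). Without both parental-line arrays, which leaves a lone Flk1+ array per genotype, the difference was 1.99. The difference was largest in Dex- cells, at 6.84 and 6.78 against 4.84 and 4.60 (2.09 ± 0.29, adjusted p = 0.000206), where it passed. Dex+ cells had 4.80 and 4.40 against 5.05 and 5.64 (0.75, 95% interval 0.13 to 1.36, adjusted p = 0.0925).

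Tex19.1 and Morc1 restrain transposons by other means. Tex19.1 encodes a mammalian protein that limits retrotransposons in germ cells and placenta. ES cells had 9.99 and 9.36 (WT) against 11.53 and 11.58 (DKO). PE had 7.01 and 7.31 against 10.65 and 10.80, and Flk1+ cells 5.97 and 5.22 against 8.58 and 10.13. Dex- cells had 5.22 and 4.08 against 11.18 and 11.66, and Dex+ cells 5.24 and 5.16 against 11.22 and 11.01. The WT level thus went down from ES cells to mesoderm, while 4 of the 5 DKO groups lay above every WT array and the fifth, Flk1+ cells, overlapped WT ES cells. The difference of 6.77 ± 0.43 in Dex- cells (adjusted p = 1.12e-07) was the largest of Tex19.1. It was 5.91 ± 0.43 in Dex+ cells (adjusted p = 2.25e-07), 3.76 ± 0.43 in Flk1+ cells (adjusted p = 0.00035) and 3.57 ± 0.43 in PE (adjusted p = 0.000143). In ES cells it was 1.88 ± 0.43 (adjusted p = 0.0318), a call that was lost without WT replicate 1 (2.20), WT replicate 2 (1.57), DKO replicate 1 (1.91) or DKO replicate 2 (1.86). With the replicate numbers as a block it was 1.88 and did not pass (adjusted p = 0.0608).

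Morc1, an ATPase required for transposon repression in the male germ line, was higher in DKO in 2 states and lower in 1. ES cells of both genotypes had the highest values, 11.81 and 11.60 for WT and 11.18 and 11.31 for DKO (-0.46, 95% interval -1.41 to 0.49, adjusted p = 0.83). In PE it was lower in DKO, at 5.45 and 5.13 against 7.23 and 7.22 in WT (-1.94 ± 0.45, adjusted p = 0.0249). This call was lost when any 1 of the 4 PE arrays was left out (-2.09 to -1.78, adjusted p from 0.0931 to 0.223). Flk1+ cells had 5.89 and 3.86 against 4.69 and 5.64, so that the groups overlapped and the difference was 0.29 (95% interval -0.66 to 1.24). The Dex- arrays stood at 3.33 and 3.39 against 8.30 and 8.80 (5.19 ± 0.45, adjusted p = 2.33e-06), and the Dex+ arrays at 3.42 and 3.60 against 7.97 and 7.80 (4.38 ± 0.45, adjusted p = 5.81e-06). Of the 12 markers of undifferentiated ES cells 7 were also lower in DKO PE, with Sox2 at 9.67 and 9.66 against 5.82 and 5.07. Their mean level was 9.51 to 9.52 in WT and 7.53 to 7.69 in DKO PE, and its part in the Morc1 value was not tested.

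**Figure D2:**
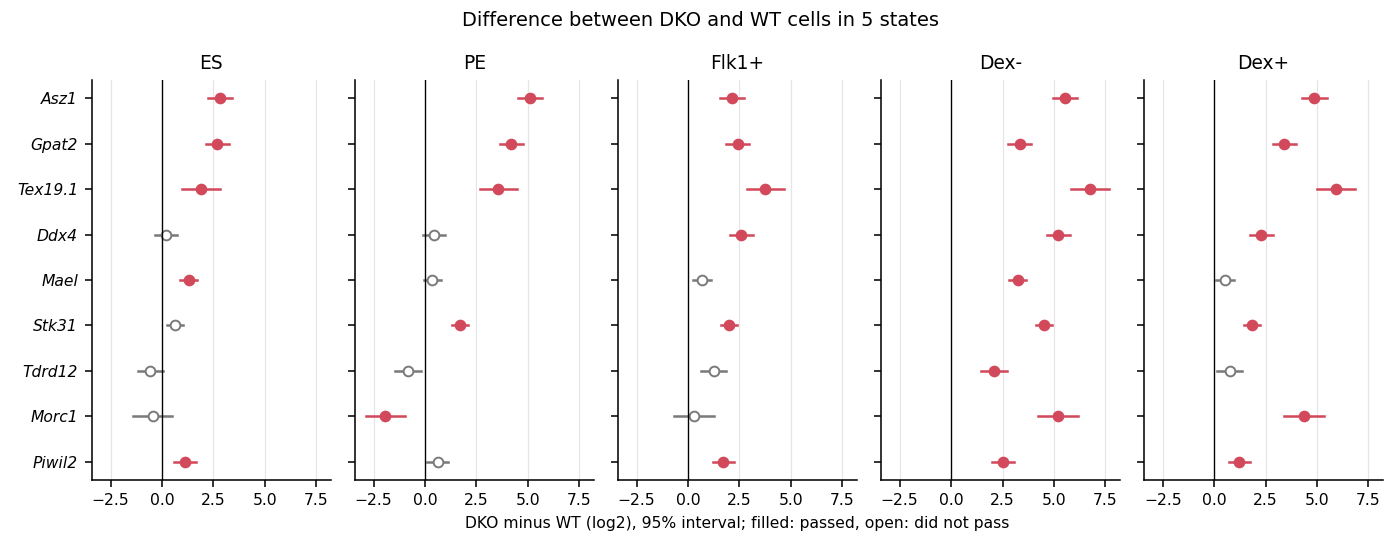
DKO minus WT (log2, horizontal axis) for the 9 genes (vertical axis) in each of 5 cell states, with the 95% interval of the limma fit. Filled red points passed and open grey points did not. Dex- cells are the state in which all 9 passed, from 2.09 for Tdrd12 to 6.77 for Tex19.1.

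In the Flk1+ groups the replicates came from different lines, were scanned on different days (4 and 2) and were the furthest apart. Line, transgene and scan day cannot be told apart between these replicates. Morc1 differed by 2.03 between the WT Flk1+ arrays, and Tex19.1 by 1.55 and Asz1 by 1.25 between the DKO arrays. The parental WT array also had the higher mean level of the ES cell markers (8.83 against 8.14), whereas in DKO the parental array had the lower one (8.23 against 8.60), and the part of this in the member values was not tested. When the fit used the 4 Flk1+ arrays alone, 0 of the 9 genes passed and 0 of all 18193 did, with 7 of 9 at an unadjusted limma p under 0.05. Without both parental-line arrays each Flk1+ group held a lone array. The differences of the 9 genes then ran from 1.07 to 4.92, and the spread within these groups could not be measured.

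The gap between the genotypes was itself compared between states. The gap in Dex- cells exceeded that in ES cells for 8 of 9 genes (4.53% of all genes passed in either direction), all but Gpat2 (0.65, 95% interval -0.13 to 1.43). That of Piwil2 (1.41) did not pass when any 1 of 6 of the 8 arrays was left out (1.08 to 1.46 in those). Examples of the wider gap are Morc1 (5.65 ± 0.63, adjusted p = 9.5e-05), Ddx4 (5.04 ± 0.36, adjusted p = 1.8e-06) and Tex19.1 (4.89 ± 0.61, adjusted p = 0.000226). From ES to Dex- cells their WT means went from 11.71 to 3.36, 8.76 to 3.49 and 9.67 to 4.65. Their DKO means went from 11.25 to 8.55, 8.95 to 8.71 and 11.56 to 11.42. Of the 8 genes only Asz1 had a DKO mean above that of ES cells (7.18 to 9.92), with WT means of 4.36 and 4.39. In Dex+ cells the gap exceeded that in ES cells for 5 of 9 (9.0% of all genes passed in either direction): Asz1, Tex19.1, Ddx4, Stk31 and Morc1. In Flk1+ cells it did so for Ddx4 and Stk31 (2 of 9, against 0.792% of all genes), and in PE for Asz1 (1 of 9, against 1.36%). Fitted on the ES and Flk1+ arrays alone, 0 of 9 passed for Flk1+ cells in limma, with 4 of 9 at an unadjusted p under 0.05. The Stk31 value there (1.35) did not pass without WT ES replicate 1 (1.23), DKO ES replicate 2 (1.25) or DKO Flk1+ replicate 1 (1.24). With the replicate numbers as a block the count in PE was 3 of 9, with Gpat2 (1.5) and Stk31 (1.06) added. These comparisons share the ES cell arrays.

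In WT cells most of these genes were lower outside the ES cell state. From ES cells to PE 7 of 9 fell in WT (6.55% of all genes fell), and from ES cells to Flk1+ mesoderm 7 of 9 fell (6.3%), all but Asz1 and Gpat2 in each case. The changes to PE and to Flk1+ cells were -4.48 and -6.83 for Morc1, -4.35 and -6.01 for Tdrd12, and -3.43 and -3.77 for Mael. They were -2.52 and -4.08 for Tex19.1, -2.87 and -3.74 for Ddx4, -3.21 and -3.79 for Stk31, and -2.49 and -2.87 for Piwil2. The changes of Asz1 were 0.03 and 0.05 and those of Gpat2 -0.73 and -0.63. In the culture of sorted mesoderm without Dex, 2 of 9 fell (7.79% of all genes fell), Ddx4 (-1.53, adjusted p = 0.000308) and Morc1 (-1.52, adjusted p = 0.0175). The Morc1 call was lost without the parental-line array of Flk1+ cells (-0.50) and without Dex- replicate 1 (-1.49) or 2 (-1.55). The 12 ES cell markers were at a mean of 11.81 and 12.13 in WT ES cells, 9.51 and 9.52 in PE, 8.83 and 8.14 in Flk1+ cells and 5.74 and 5.75 in Dex- cells.

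No change of the 9 genes passed with Dex in WT mesoderm. Between Dex+ and Dex- cells their changes ran from -0.19 (Piwil2) to 0.55 (Tex19.1), and 0 of 9 passed in limma (1.6% of all genes passed in either direction), with 0 of 9 at an unadjusted p under 0.05. The widest 95% interval was that of Morc1, from -0.80 to 1.11. With so low a share over all genes, 0 of 9 does not set these genes apart. Their means in WT Dex- cells were already low, from 3.36 (Morc1) to 5.14 (Piwil2), so that a further fall could hardly be read.

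Most of the genes also fell on leaving the ES cell state in DKO cells. From ES cells to PE 6 of 9 fell (8.18% of all genes fell) and Asz1 rose (1 of 9, 8.13% of all genes rose). Asz1 rose by 2.31 ± 0.28 (adjusted p = 1.29e-05), while Gpat2 changed by 0.77 and Tex19.1 by -0.83, which did not pass. The 6 falls were -5.96 for Morc1, -4.62 for Tdrd12, -4.38 for Mael, -3.0 for Piwil2, -2.62 for Ddx4 and -2.15 for Stk31. From ES cells to Flk1+ mesoderm 7 of 9 fell (5.62%), again all but Asz1 and Gpat2, with Morc1 (-6.08), Mael (-4.38) and Tdrd12 (-4.21) first and Ddx4 (-1.34) last. The changes of Asz1 and Gpat2 were -0.64 and -0.91.

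During the culture of DKO mesoderm without Dex 6 of 9 genes rose (8.23% of all genes did). Morc1 rose by 3.39 ± 0.45 (adjusted p = 3.59e-05), Asz1 by 3.38 ± 0.28 (adjusted p = 5.06e-07) and Mael by 2.48 ± 0.2 (adjusted p = 3.92e-07). Stk31 rose by 2.40 ± 0.18, Tex19.1 by 2.06 ± 0.43 and Ddx4 by 1.11 ± 0.26. Piwil2 (0.96), Gpat2 (0.48) and Tdrd12 (0.44) did not pass. Ddx4 was at 0.87, under the 2-fold limit, without the parental-line DKO array. Over the same step 6 of the 8 mural cell markers rose and 0 fell (mean level 7.83 and 8.44 in Flk1+, 9.72 and 10.19 in Dex- cells). Of the 11 primitive endoderm markers 5 rose and 2 fell, and of the 9 measured mesoderm markers 8 fell and 0 rose. Of the 12 ES cell markers 6 fell and 0 rose, and their mean level went from 8.23 and 8.60 in Flk1+ cells to 6.48 and 6.43 in Dex- cells. The part of these shifts in the member values was not tested.

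In DKO mesoderm 5 of the 9 genes were lower in Dex+ than in Dex- cells (4.99% of all genes fell). The changes were -2.78 ± 0.2 for Mael (adjusted p = 1.7e-07), -2.64 ± 0.18 for Stk31 (adjusted p = 9.13e-08) and -2.49 ± 0.26 for Ddx4 (adjusted p = 6.53e-06). They were -1.49 ± 0.25 for Piwil2 and -1.46 ± 0.29 for Tdrd12. The other 4 genes changed by -0.83 (Asz1, 95% interval -1.42 to -0.23, adjusted p = 0.0521), -0.67 (Morc1, -1.62 to 0.29), -0.31 (Tex19.1, -1.22 to 0.61) and 0.31 (Gpat2, -0.24 to 0.86). The response to Dex differed between the genotypes for Ddx4 (-2.92 ± 0.36, adjusted p = 0.000154), Mael (-2.7 ± 0.28, adjusted p = 3.27e-05), Stk31 (-2.67 ± 0.25, adjusted p = 1.22e-05) and Piwil2 (-1.31 ± 0.35, adjusted p = 0.0347). This is 4 of 9, against 5.86% of all genes in either direction. WT Dex- cells were already dim for these 4 genes, with means of 3.49, 3.56, 3.72 and 5.14 in the same order. A fall of the DKO size could therefore hardly be read in WT cells, and these differences largely restate the falls in DKO cells. The Piwil2 call was lost when any of the 8 cultured arrays but DKO Dex- replicate 1 was left out (-1.43 to -1.01, adjusted p from 0.0618 to 0.166). Between the same groups 8 of 11 primitive endoderm markers rose (mean level 10.03 and 9.89 in Dex-, 12.61 and 12.70 in Dex+ DKO cells) and 7 of 8 mural cell markers fell (9.72 and 10.19 against 7.83 and 7.62). The part of this shift in the member values was not tested.

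**Figure D3:**
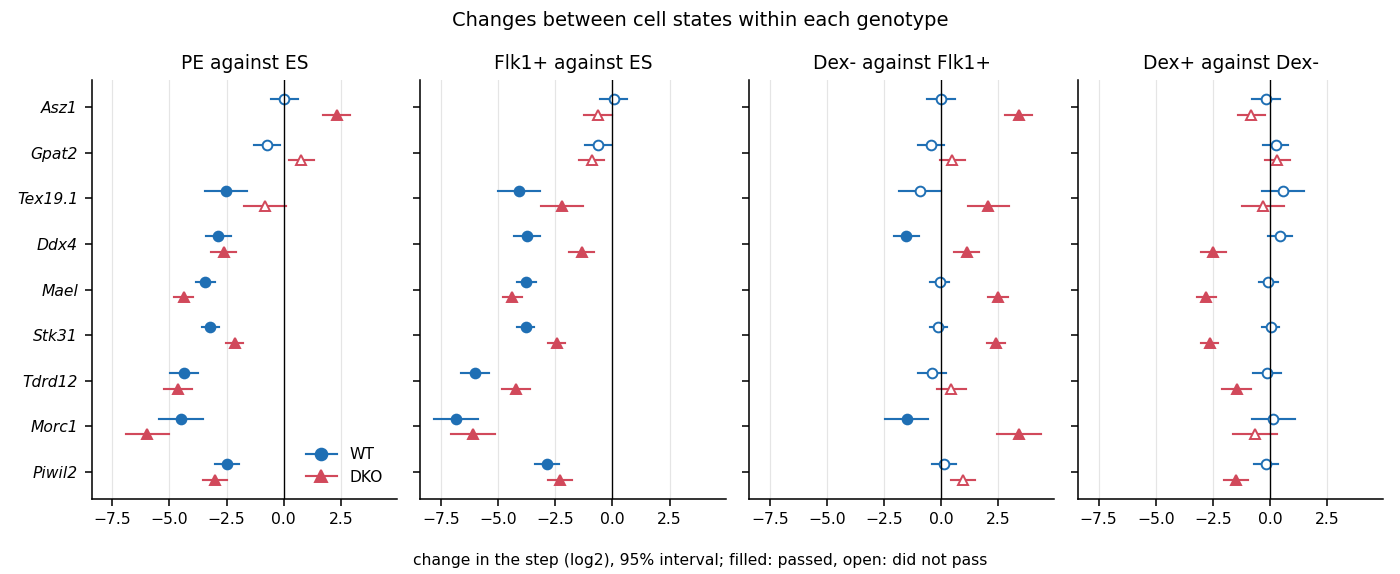
Change between cell states (log2, horizontal axis) of the 9 genes (vertical axis) in WT (blue circles) and DKO cells (red triangles), with 95% intervals. Filled symbols passed. From Flk1+ to Dex- cells 6 genes rose in DKO and 2 fell in WT, and from Dex- to Dex+ cells 5 fell in DKO and 0 passed in WT.

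The order of the 10 group means separated the genes by where their WT level was high. For Asz1 and Gpat2 all 5 DKO groups came before all 5 WT groups. Mael and Piwil2 were highest in DKO ES cells (8.69 ± 0.18 and 9.0 ± 0.06, SD, n = 2), followed by WT ES cells (7.40 ± 0.26 and 7.88 ± 0.47) and then DKO Dex- cells (6.79 ± 0.18 and 7.67 ± 0.41), with WT ES and DKO Dex- cells overlapping for Piwil2. Morc1 and Tdrd12 had WT ES cells first (11.71 ± 0.15 and 11.13 ± 0.2) and DKO ES cells next (11.25 ± 0.09 and 10.57 ± 0.11), with a step of 2.7 for Morc1 and 3.76 for Tdrd12 down to DKO Dex- cells. For Tdrd12, DKO Dex- cells (6.81 ± 0.04) and WT PE (6.79 ± 0.19) overlapped. WT Dex- or Dex+ cells were the lowest group for all 9 genes.

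Over the 20 arrays Asz1 correlated with Gpat2 (r = 0.92) and Tex19.1 (r = 0.81), and with Tdrd12 at r = 0.00. Ddx4, Mael, Stk31 and Piwil2 correlated with each other at 0.86 to 0.94, and Mael with Tdrd12 and Morc1 at 0.90 and 0.88. The arrays share 10 groups and 2 lines, so these values describe the groups more than single arrays. In all, 5771 genes varied over the arrays (SD of at least 0.5), and the members among them were left aside. Most like Asz1 in pattern were AI662270 (r = 0.972) and 8030474K03Rik (0.963), and most like Gpat2 were Rec114 (0.969) and Efhc2 (0.966). Tex19.1 was nearest to Rpl39l (0.955) and Slc25a31 (0.951), Ddx4 to Tex11 (0.939) and Rnf17 (0.934), and Mael to Hormad1 (0.969) and Cd34 (0.954). The closest patterns were Uba1y (0.99) and Gm4961 (0.952) for Stk31, C730049O14Rik (0.982) and Napepld (0.971) for Tdrd12, Dppa4 (0.958) and Dppa2 (0.945) for Morc1, and Cyct (0.941) and Gca (0.933) for Piwil2.

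Some other genes of the piRNA pathway were also higher in DKO cells. Of 23 listed genes 19 were measured, of which 3 were higher in DKO ES cells (1.12% of all genes were), 1 in PE (1.13%), 3 in Flk1+ cells (0.396%), 4 in Dex- cells (3.51%) and 3 in Dex+ cells (4.82%), where 1 was lower. Their median difference lay between 0.09 and 0.27. Tex19.2, the paralog of Tex19.1, was higher in ES cells (1.90), PE (1.84), Dex- cells (2.89) and Dex+ cells (2.81). In Dex- cells it stood at 6.30 and 6.42 against 9.23 and 9.27. Rnf17, a Tudor-domain protein of male germ cells, had Dex- values of 4.27 and 3.93 for WT against 7.61 and 7.36 for DKO (3.38 ± 0.37, adjusted p = 2e-05) and was higher in Flk1+ (1.89) and Dex+ cells (1.70) as well. In ES cells, like Ddx4, it was bright in both genotypes (9.76 and 9.42 against 9.70 and 9.61).

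Gtsf1, a zinc finger partner of PIWI proteins, was higher in ES cells (1.17) and Dex- cells (2.67), and Pnldc1, the nuclease that trims piRNA ends, in Dex- (1.37) and Dex+ cells (1.29). Mov10l1, the helicase that feeds precursors to the pathway, was higher in ES (1.01) and Flk1+ cells (1.1), and Tdrkh, a mitochondrial Tudor protein, in Flk1+ cells (1.24). Tdrd7, a Tudor protein of the chromatoid body, was lower in DKO Dex+ cells (-1.14). The other PIWI genes were not among them: Piwil1 was at 4.86 to 5.28 and Piwil4 at 3.61 to 4.2 over all 20 arrays.

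**Figure D4:**
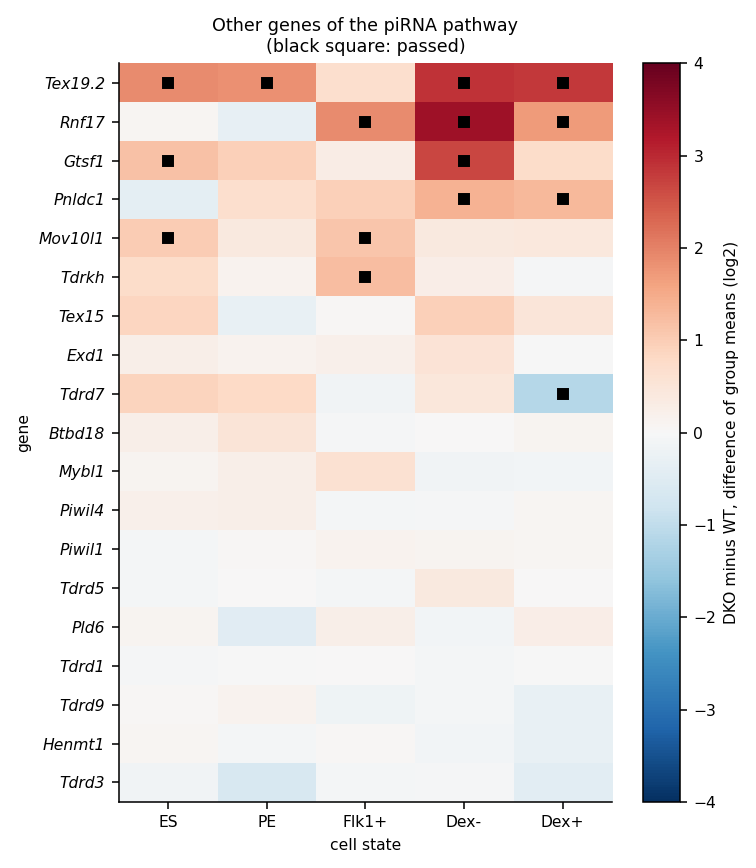
DKO minus WT difference of group means (log2, colour scale) for 19 other genes of the piRNA pathway (vertical axis) in 5 cell states (horizontal axis). Black squares mark differences that passed. Tex19.2 passed in 4 states and Rnf17 in 3, where its difference in Dex- cells was 3.38.

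Genes that repress transposons outside the piRNA pathway, such as Trim28, Setdb1 and Dnmt1, were a separate list. Of 29 measured, 1 was higher in DKO ES cells, against 1.12% of all genes (Zc3hav1, an antiviral zinc finger protein, 1.33, adjusted p = 0.0451). None passed in PE, Flk1+ or Dex- cells (0 of 29 in limma in each, with 6, 5 and 11 at an unadjusted p under 0.05). Of all 18193 genes 206 were higher and 150 lower in PE, 72 and 55 in Flk1+ cells, and 638 and 425 in Dex- cells. At such low shares 0 of 29 does not set this list apart. In Dex+ cells 4 were higher (4.82% of all genes were). They were the chromatin remodeler Hells (1.6), Zc3hav1 (1.32), the histone chaperone subunit Chaf1b (1.12) and the methylation maintenance factor Uhrf1 (1.07). Samhd1, which lowers nucleotide pools, was lower (-1.03) and is named after its value was seen. Of the PRC1.6 complex, which holds many germline genes silent through E2f6 and Mga, 0 of 13 measured genes passed in any of the 5 states in limma, with 2 or 3 at an unadjusted p under 0.05. With 13 genes this too is not far from the shares over all genes.

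Germ cell markers were read beside these genes. Of 9 measured markers of primordial germ cells 3 were higher in DKO Dex- cells, Dazl (4.31 and 3.96 against 8.95 and 8.42), Tfap2c and Dnd1, named after their values were seen, and the mean level of the list was 5.8 and 5.72 for WT and 6.77 and 6.81 for DKO arrays. Prdm14, a determinant of these cells, had Dex- values of 4.06 and 3.63 (WT) and 4.06 and 3.96 (DKO), and those of Dppa3 were 5.65 and 6.17 against 5.81 and 5.96. In ES cells, where both are known to be active, Prdm14 was at 8.24 to 9.46 and Dppa3 at 8.63 to 10.05 over the 4 arrays. Of 12 markers of meiotic and postmeiotic germ cells 2 were higher in DKO Dex- cells, the synaptonemal complex genes Sycp3 (3.23 and 3.35 against 6.07 and 6.11) and Sycp1 (3.51 and 3.59 against 6.18 and 6.12). The protamine Prm1 of sperm was at 7.31 to 7.87 over all 20 arrays. In Dex+ cells 3 primordial germ cell markers were higher in DKO, Kit (6.21), Dazl (3.12) and Dnd1 (1.61). There 2 were lower, Ifitm3 (-1.62) and Tfap2c (-1.19, against 2.32 in Dex- cells). Kit was also bright in PE, at 10.81 and 10.66 (WT) and 11.71 and 11.56 (DKO). Its DKO Dex+ values were near these, at 11.01 and 11.65, so it does not mark germ cells alone here. Of the 12 later markers Stra8 (2.54) and Sycp3 (2.22) were higher in DKO Dex+ cells. The germ cell markers were not confined to the cultured cells: Dazl was also higher in DKO ES cells (2.31) and PE (5.43), Sycp1 in ES cells (1.09), Stra8 in PE (2.04), and Sycp3 in PE (1.38) and Flk1+ cells (1.95). Of the ES cell markers 4 of 12 were higher in DKO Dex- cells, led by Zfp42 (4.08 and 4.51 against 7.25 and 6.99), while Nanog was at 3.94 and 3.91 against 4.42 and 4.39 and Sox2 at 4.60 and 5.61 against 4.91 and 4.72. The part of any of these markers in the levels of the 9 genes was not tested.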

How the data were processed

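RNA of 20 cultures was labelled in 2 cycles and hybridized to Affymetrix MOE430v2 arrays. The authors deposited log2 probe set values made with RMA (background correction, quantile normalization, median polish), with no version given in the sources used here. No detection limit was applied, so that large folds from dim values are not exact, and the number of arrays limits the precision. Of 45101 probe sets 34945 had 1 gene in the platform annotation, and each of 18193 genes was read from its brightest one (mean of 20 arrays). Promoters, matched by symbol for 7 of the 9 genes, came from RefSeq.

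A mean per group was fitted to all genes and arrays with limma 3.58.1 (R 4.3.3; 10 residual and 4.54 prior degrees of freedom) and Benjamini-Hochberg adjustment. Differences are given ± SE. The SAM test of the study was not run. The members and lists were chosen with earlier results of these data known. All 9 genes were named, with up to 4 passing genes per other pathway list and state and the 2 most similar genes. The plan was to name up to 3 markers per cell type list, and for some lists more are named. In the 5 states, WT and DKO arrays of equal replicate number in the labels, which share a scan day per the deposited experiment files, deviated together (r = 0.18 to 0.36) and were taken as pairs in an alternative with that number as a block. The other alternatives were other uses of probe sets, a filter on dim genes, quantile normalization, other variances or arrays in the fit, scan day as a block, and arrays left out. The fit was tested on simulated data with independent arrays and, for each gene, the same spread in all groups. These data did not copy the wider Flk1+ groups or the shared deviations of the pairs.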

Additional observations from a re-analysis of the deposited data

Results flagged for a closer look

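The difference between DKO and WT cells was not the same in all states, as tested by the interaction in the limma fit, and the values below are differences of 2 such gaps on the log2 scale. Against the gap in ES cells, that in Dex- cells was larger by 5.65 for Morc1, 5.04 for Ddx4, 4.89 for Tex19.1, 3.88 for Stk31, 2.71 for Asz1, 2.65 for Tdrd12, 1.93 for Mael and 1.41 for Piwil2. For all of these but Asz1 the DKO mean did not go up from ES to Dex- cells, while the WT mean went down. In Dex+ cells the gap exceeded that in ES cells by 4.84 for Morc1, 4.03 for Tex19.1, 2.12 for Ddx4, 2.06 for Asz1 and 1.21 for Stk31. In Flk1+ cells it did so by 2.40 for Ddx4 and 1.35 for Stk31, the latter not without both parental-line arrays (1.18). In PE the gap of Asz1 exceeded that in ES cells by 2.28. Between Dex+ and Dex- cells the gap changed by -2.92 for Ddx4, -2.7 for Mael, -2.67 for Stk31 and -1.31 for Piwil2. On the second probe set of Asz1 the gaps against ES cells were larger by 0.54 in PE, 0.96 in Dex- cells and 0.12 in Dex+ cells, and none of these 3 passed (adjusted p = 0.784, 0.0691 and 0.899 in limma fitted to all probe sets). Groups of 2 arrays allow no test for outlying arrays.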

How the results depend on the processing

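Of 162 member values (9 genes in 18 comparisons), 93 passed and 78 of these did so under every alternative run for them (30 for most). No value that passed changed direction. The limits are the 2 arrays per group, 1 clone per genotype, a missing detection limit, and probe sets of Stk31, Tdrd12 and Morc1 that can read several transcripts. Leaving an array out leaves a lone array in its group, which is assumed to vary like the other groups. The cause of the changes below was not tested unless named.

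The replicate block moved the count of genes whose gap in PE differed from that in ES cells from 1 to 3 with Gpat2 (1.5) and Stk31 (1.06) gained, and ended the Tex19.1 call in ES cells (1.88). It changed no other call. With scan day as a block that PE count was 2, as with the mean of all probe sets, quantile normalization and trended robust variances. It was 5 with only the arrays of the comparison and 5 without both parental-line arrays, and 1 to 3 when single arrays were left out. The steps from ES cells were not run with scan day as a block, since no day is shared.

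Without probe sets that can read several transcripts, Stk31, Tdrd12 and Morc1 are not measured. The counts then were 3 for DKO against WT in PE, 4 for each step from ES cells to PE or Flk1+ mesoderm in either genotype, 1 for WT Dex- against Flk1+ cells and 3 for DKO Dex+ against Dex- cells. For the gap against ES cells they were 1 in Flk1+ cells, 5 in Dex- cells and 3 in Dex+ cells. Without the dimmest genes, which include Mael and Stk31, the counts were 3 for DKO Dex+ against Dex- cells, 2 for the Dex+ against the Dex- gap and 1 for the Flk1+ against the ES gap.

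With only the arrays of the comparison 0 genes passed in Flk1+ cells and 0 for the Flk1+ against the ES gap, and 1 for WT Dex- against Flk1+ cells. Without both parental-line arrays the last 2 counts were 4 and 1. When single arrays were left out the count for DKO against WT in ES cells was 3 to 5, for the Flk1+ against the ES gap 1 to 4, and for WT Dex- against Flk1+ cells 1 to 2.

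Values that changed direction had not passed, and the largest was 0.75. For Asz1 in WT, leaving out single arrays gave -0.082 to 0.14 from ES cells to PE, -0.066 to 0.16 to Flk1+ cells, -0.22 to 0.18 from Flk1+ to Dex- cells and -0.37 to 0.027 from Dex- to Dex+ cells. The step of Asz1 to Flk1+ cells was -0.007 with quantile normalization, and that from Flk1+ to Dex- cells 0.12 with the mean of all probe sets and 0.20 with scan day as a block. Mael from WT Flk1+ to Dex- cells was at -0.43 to 0.29 over the single arrays left out and at 0.29 without both parental-line arrays. From WT Dex- to Dex+ cells Mael was at 0.028 with scan day as a block, and Stk31 at -0.054 with the mean of all probe sets. With single arrays left out that step was -0.11 to 0.18 for Stk31, -0.32 to 0.083 for Tdrd12 and -0.023 to 1.12 for Tex19.1. Tdrd12 from DKO Flk1+ to Dex- cells was at -0.10 to 0.99, and at -0.10 without both parental-line arrays. Morc1 in Flk1+ cells was at -0.72 to 1.3, and its Flk1+ against ES gap at -0.26 to 1.77. The same gap of Gpat2 was at -0.72 to 0.17, and at 0.12 without both parental-line arrays. The Dex+ against the Dex- gap of Gpat2 was at -0.20 to 0.33, and the Dex+ against the ES gap of Piwil2 at -0.22 to 0.44.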
